A study of Mus musculus with 16 samples.

Results

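The 10 genes described here encode the elastic fibre and the proteins that assemble and cross-link it: elastin (Eln), the fibrillins (Fbn1, Fbn2), the fibulins (Fbln1, Fbln2, Fbln5, Efemp1, Efemp2) and the lysyl oxidases (Lox, Loxl1). They were chosen by name from what is known of elastic fibres, but with earlier results of these data known, so counts of them are a description. Each was found by its symbol in the deposited table, where they hold 81 of 168326 transcript entries and are 10 of 28698 genes. All 10 passed the filter on low values. RNA sequencing was done on primary preadipocytes, the fibroblast-like fat cell precursors of the stromal-vascular fraction. There were 16 libraries in 4 groups of 4: interscapular brown preadipocytes with Fgf8b (brown Fgf8b), the same cells with a control treatment (brown control), inguinal white preadipocytes with Fgf8b (white Fgf8b) and with control (white control). Cells of all 4 groups came from C57BL/6N mice that carry a UCP1 reporter, so no group lacks the reporter. Fgf8b is a secreted fibroblast growth factor. The sources used here give neither its dose nor the time of treatment nor the age of the mice.

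An elastic fibre has a core of elastin, laid down as the soluble monomer tropoelastin on a scaffold of microfibrils whose main protein is fibrillin. Fibulin-4 and fibulin-5 carry tropoelastin and lysyl oxidases to the scaffold, and lysyl oxidases convert lysines so that the monomers become cross-linked. Connective tissue cells such as fibroblasts make these proteins, and in fat tissue the precursor cells are among the sources of matrix.

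With Fgf8b, 8 of the 10 genes fell in brown and 8 in white preadipocytes, and 2 rose in each. Eln fell most, Fbn2 and Lox fell several-fold, Fbn1 and Fbln5 fell more than 2-fold, and Efemp1 and Loxl1 rose in both depots, Loxl1 in brown by a call that depended on the setting. A gene is called here at a Benjamini-Hochberg adjusted p under 0.05 from limma on log2(RPKM + 0.5), where RPKM (reads per kilobase of transcript per M mapped reads) is summed over the entries of a gene. Of all 15067 genes tested, 34.7% were called lower and 36.8% higher with Fgf8b in brown preadipocytes, and 29.5% lower and 36.4% higher in white preadipocytes. The median log2 fold change of the 10 genes was -1.05 in brown and -1.21 in white preadipocytes, beside medians over all genes of 0.01 and 0.04. Levels of single libraries below are the RPKM of 1 RefSeq transcript of each gene, the one with the highest mean, and libraries carry the numbers of their labels.

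**Figure D1:**
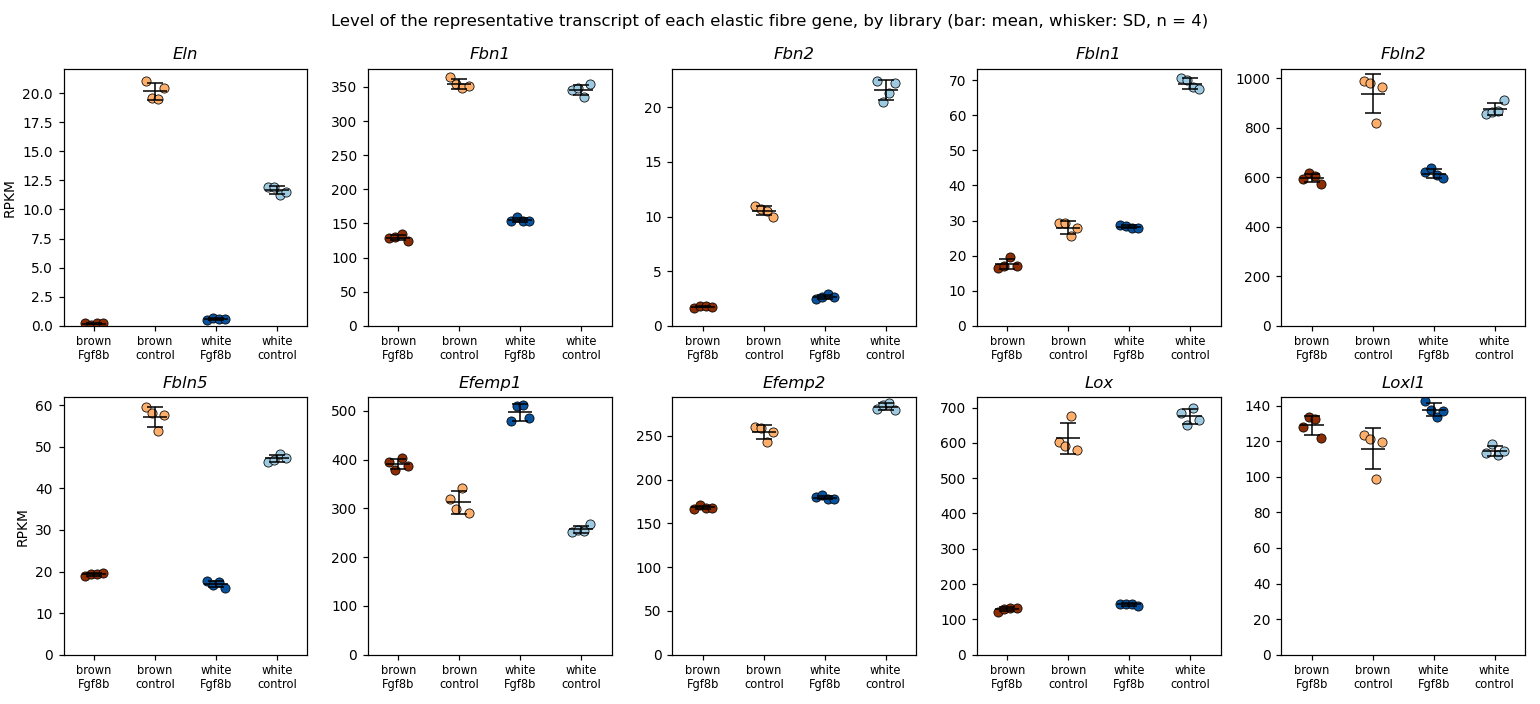
RPKM of the representative transcript of each of the 10 genes (vertical axis, linear from 0) in brown Fgf8b, brown control, white Fgf8b and white control preadipocytes, with a point per library, the mean and the SD (n = 4). Eln lies below 1 RPKM in every Fgf8b library, and Efemp1 is higher with Fgf8b in both depots.

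Libraries held 13.7 to 20.1 M reads as read back from the values, with group means of 15.1 M in brown Fgf8b, 15.4 M in brown control, 18.2 M in white Fgf8b and 18.0 M in white control. Brown control 15 stood apart: its chi-square per degree of freedom against the other brown controls was 7.1 to 7.63, while the 21 other pairs within a group had 1.34 to 2.47. Zic1, a brown depot gene, had 12.7 and 12.8 RPKM in brown Fgf8b and brown control, against 0.162 and 0.176 RPKM in white Fgf8b and white control. Dusp6, a target of FGF signalling, averaged 40.7 RPKM in brown Fgf8b against 3.67 RPKM in brown control, and 26.4 RPKM in white Fgf8b against 3.98 RPKM in white control. The labels name both adipocytes and preadipocytes as the source. Of 6 adipocyte markers, Lep and Retn were listed at 0 in all groups, and the summed level of the 6 was 10.6 to 13.5 RPKM in brown Fgf8b, 16.8 to 19.5 RPKM in brown control, 5.13 to 6.33 RPKM in white Fgf8b and 9.66 to 11.1 RPKM in white control. Nearly all of this sum was Fabp4: the 5 other markers together reached at most 0.118 RPKM in any library. The summed level of 9 preadipocyte and fibroblast markers was 1175 to 1216, 2209 to 2624, 2073 to 2231 and 3374 to 3501 RPKM in the same 4 groups. The most abundant over all libraries was Col1a1 (type I collagen), at 234 RPKM in brown Fgf8b against 1313 RPKM in brown control, and 415 RPKM in white Fgf8b against 1776 RPKM in white control. The 8 other markers summed to 955 to 974, 1138 to 1224, 1666 to 1804 and 1611 to 1733 RPKM in the same 4 groups, with overlap of the white ones. With Fgf8b, 2 of the 9 rose and 6 fell in brown, and 5 rose and 4 fell in white preadipocytes. Beside these counts, 36.8% of all genes rose and 34.7% fell in brown, and 36.4% rose and 29.5% fell in white.

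Eln encodes elastin itself. Its transcript had 0.198, 0.0878, 0.217 and 0.252 RPKM in brown Fgf8b libraries 10, 12, 14 and 16, against 20.4, 21.1, 19.5 and 19.5 RPKM in brown control libraries 9, 11, 13 and 15. In white preadipocytes it had 0.501, 0.679, 0.604 and 0.622 RPKM in Fgf8b libraries 2, 4, 6 and 8, against 12, 11.9, 11.2 and 11.5 RPKM in control libraries 1, 3, 5 and 7. Groups did not overlap, and Fgf8b libraries were near the limit of the depth: the values correspond to 5 to 14 reads per brown Fgf8b library and 33 to 49 per white Fgf8b library, against 1062 to 1257 reads per brown control library and 707 to 889 per white control library. The mean level was 107-fold lower with Fgf8b in brown and 19.4-fold lower in white preadipocytes. On the log2(summed RPKM + 0.5) scale, which understates the change of such low values, Eln fell by 5.99 ± 0.13 (SE; adjusted p = 5.04e-18) in brown and by 4.04 ± 0.13 (adjusted p = 1.93e-15) in white preadipocytes. The size, not the call, depended on the setting: with the representative transcript alone the log2 fold changes in brown and white were -4.91 and -3.47, and with a pseudocount of 0.1 they were -6.58 and -4.26.

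Eln was also the gene of the 10 whose response differed most between depots. The brown response minus the white response was -1.94 ± 0.18 (log2, SE; adjusted p = 1.75e-07), and between -2.31 and -1.44 over all alternatives. Without Fgf8b, brown control cells had more Eln than white control cells, at 20.1 ± 0.74 against 11.7 ± 0.33 RPKM (SD, n = 4 each; log2 difference 0.80, adjusted p = 6.95e-05). Under Fgf8b the order was the opposite, at 0.189 ± 0.071 RPKM in brown against 0.602 ± 0.074 RPKM in white preadipocytes (log2 difference -1.15, adjusted p = 5.04e-07). All brown libraries are numbered from 9 to 16 and all white libraries from 1 to 8. Depot and any batch that follows these numbers cannot be told apart in this or any other comparison of depots.

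Fibrillins form the microfibril, with fibrillin-1 the main form in adult tissue and fibrillin-2 best known from development. Fbn1 had 129, 129.8, 134 and 124 RPKM in brown Fgf8b libraries (in the order above), against 351, 365, 354 and 348 RPKM in brown control libraries. It had 154, 160.2, 154 and 154 RPKM in white Fgf8b libraries, against 346, 348, 335 and 354 RPKM in white control libraries. Brown and white controls overlapped, and Fgf8b libraries lay below all controls in both depots. Fbn1 fell by 1.44 ± 0.03 (log2, SE; adjusted p = 3.84e-18) in brown and by 1.14 ± 0.03 (adjusted p = 1.51e-16) in white preadipocytes, and the brown response was the larger by 0.30 (response difference -0.30 ± 0.04, adjusted p = 2.06e-05).

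Fbn2, more than 10-fold below Fbn1 in all groups, moved further. It had 1.66, 1.79, 1.81 and 1.72 RPKM in brown Fgf8b libraries, against 9.99, 10.9, 10.7 and 10.5 RPKM in brown control libraries. In white preadipocytes it had 2.46, 2.62, 2.88 and 2.59 RPKM with Fgf8b, against 22.4, 20.5, 21.3 and 22.2 RPKM with control. White control cells thus held the highest Fbn2 of the 4 groups, with no overlap, and the log2 difference of brown from white controls was -1.03 ± 0.07 (adjusted p = 7.60e-10). Fbn2 fell by 2.50 ± 0.07 (log2, SE; adjusted p = 1.62e-16) in brown and by 3.02 ± 0.07 (adjusted p = 1.51e-17) in white preadipocytes, so that here the white response was the larger (response difference 0.52 ± 0.10, adjusted p = 0.000348). Within a library the level of Fbn1 over that of Fbn2 was 74.2 ± 2.6 in brown Fgf8b against 33.7 ± 1.0 in brown control, and 59.1 ± 4.0 in white Fgf8b against 16 ± 0.7 in white control (SD, n = 4 each). The fibrillin transcripts were therefore more unequal with Fgf8b in both depots.

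The Fbn1 promoter is shown because Fbn1 is the main scaffold gene and fell in both depots from overlapping control levels. The sequence is from RefSeq (GRCm38.p6, chr2:125506389-125506688, minus strand), 250 bases before to 50 after a start site, and motif matches are in capitals. Motifs were searched on both strands. The AP-1 motif, TGANTCA, is held by 7.8% of 32851 mouse promoter windows of this length. The SMAD element, CAGAC, is held by 49.6% of them. The ETS motif, CCGGAA, is held by 14.9% of the windows. The TATA box, TATAAA, is held by 13.6% of the windows. None of these motifs occurs in the Fbn1 window, so it has no capitals.
Fbn1: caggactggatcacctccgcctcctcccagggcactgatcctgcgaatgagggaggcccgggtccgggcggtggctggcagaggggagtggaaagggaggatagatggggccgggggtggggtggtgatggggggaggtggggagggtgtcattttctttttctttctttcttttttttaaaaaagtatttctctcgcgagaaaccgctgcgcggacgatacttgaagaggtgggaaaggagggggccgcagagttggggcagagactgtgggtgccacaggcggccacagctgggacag

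Fibulins are calcium-binding glycoproteins that bridge elastin, microfibrils and cell surfaces. Fbln1, Fbln2 and Fbln5 fell. Fbln1 had 16.5, 17.1, 19.6 and 17.2 RPKM in brown Fgf8b libraries, against 27.8, 29.4, 29.2 and 25.5 RPKM in brown control libraries. It had 28.6, 28.5, 27.9 and 28.0 RPKM in white Fgf8b libraries, against 70.6, 70.0, 68.0 and 67.6 RPKM in white control libraries. White Fgf8b libraries thus held about the Fbln1 level of brown controls. Fbln1 fell by 0.66 ± 0.05 (log2, SE; adjusted p = 6.04e-10) in brown and by 1.29 ± 0.05 (adjusted p = 3.98e-14) in white preadipocytes, a response difference of 0.63 ± 0.07 (adjusted p = 1.68e-06). Brown controls were below white controls by a log2 difference of -1.31 ± 0.05 (adjusted p = 3.60e-13).

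Fbln5, which encodes fibulin-5, needed for elastic fibre assembly in mice, fell in both depots. It had 18.8 to 19.7 RPKM in brown Fgf8b against 53.9 to 59.6 RPKM in brown control, and 16.1 to 17.7 RPKM in white Fgf8b against 46.3 to 48.3 RPKM in white control libraries. It fell by 1.55 ± 0.04 (adjusted p = 5.38e-17) in brown and 1.48 ± 0.04 (adjusted p = 1.42e-16) in white preadipocytes, on the log2 scale with SE. The response difference was -0.08, with a 95% interval from -0.19 to 0.04 (adjusted p = 0.307), which includes 0. Fbln5 was the single gene of the 10 called higher in brown than in white preadipocytes under both treatments, by 0.27 under control (adjusted p = 2.13e-05) and by 0.19 under Fgf8b (adjusted p = 0.000352), both log2.

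Fbln2, whose protein binds fibrillin and elastin, was the most abundant of the 10 in every group. It had 575 to 617 RPKM in brown Fgf8b against 820.3 to 988 RPKM in brown control, and 596 to 636 RPKM in white Fgf8b against 857 to 914 RPKM in white control libraries. The low end of the brown controls was brown control 15, and the other brown controls had 965 to 988 RPKM. Fbln2 fell by 0.65 ± 0.04 (log2, SE; adjusted p = 1.66e-10) in brown and by 0.51 ± 0.04 (adjusted p = 7.56e-09) in white preadipocytes. Between controls the depot difference of 0.10 was not called (adjusted p = 0.108), and neither was the response difference of -0.14 (adjusted p = 0.0899). Without brown control 15 both were called, at 0.16 (adjusted p = 9.1e-05) and -0.20 (adjusted p = 0.000155), and with upper-quartile scaling the response difference was called at -0.16 (adjusted p = 0.0393).

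Efemp1 and Efemp2 encode fibulin-3 and fibulin-4. Efemp2 is needed to make elastic fibres in mice, while loss of Efemp1 in mice weakens fascia. They moved in opposite directions. Efemp1 had 394, 378, 402 and 388 RPKM in brown Fgf8b libraries, against 291, 319, 298 and 342 RPKM in brown control libraries. It had 479, 511, 512 and 486 RPKM in white Fgf8b libraries, against 251, 255, 254 and 268 RPKM in white control libraries. All Fgf8b libraries lay above all controls of their depot. Efemp1 rose by 0.31 ± 0.06 (log2, SE; adjusted p = 6.36e-05) in brown and by 0.96 ± 0.06 (adjusted p = 1.92e-11) in white preadipocytes, a response difference of -0.65 ± 0.08 (adjusted p = 4.20e-06). Like Eln it changed its depot order: the log2 difference of brown from white was 0.31 under control (adjusted p = 0.000203) and -0.33 under Fgf8b (adjusted p = 6.27e-05).

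Efemp2 had 167 to 171 RPKM in brown Fgf8b against 243 to 259.9 RPKM in brown control, and 178 to 182 RPKM in white Fgf8b against 279.6 to 288 RPKM in white control libraries. It fell by 0.58 ± 0.03 (log2, SE; adjusted p = 1.23e-12) in brown and by 0.66 ± 0.03 (adjusted p = 1.99e-13) in white preadipocytes. Mus81 overlaps Efemp2 on the opposite strand in GENCODE M21, and the sources used here do not say whether the libraries keep strand. Gene models without a described function overlap Eln, Fbn1, Fbn2 and Lox in the same way, so reads of such pairs cannot be told apart. The level of Efemp1 over that of Efemp2 within a library was 2.32 ± 0.08 in brown Fgf8b against 1.23 ± 0.12 in brown control, and 2.77 ± 0.09 in white Fgf8b against 0.906 ± 0.034 in white control (SD, n = 4 each). Fibulin-3 transcripts thus exceeded fibulin-4 transcripts in all groups except white control.

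The promoters of Efemp1, the fibulin that rose, and of Fbln1, a fibulin that fell, are shown for contrast (RefSeq, GRCm38.p6, plus strand; the same motifs in capitals). The Efemp1 window is chr11:28852955-28853254 and holds 1 AP-1 and 1 SMAD match. The Fbln1 window is chr15:85205699-85205998 and holds 2 SMAD matches, written on the minus strand as GTCTG. RefSeq windows were matched for 6 of the 10 genes, in a search that left out the windows of 1 chromosome. The motif matches are a description of letters only.
Efemp1: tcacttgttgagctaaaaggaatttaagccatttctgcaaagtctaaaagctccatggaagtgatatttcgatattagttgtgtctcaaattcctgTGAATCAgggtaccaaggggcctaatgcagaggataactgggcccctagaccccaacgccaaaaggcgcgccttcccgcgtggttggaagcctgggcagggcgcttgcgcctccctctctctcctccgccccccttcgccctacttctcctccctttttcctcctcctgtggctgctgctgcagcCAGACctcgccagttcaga
Fbln1: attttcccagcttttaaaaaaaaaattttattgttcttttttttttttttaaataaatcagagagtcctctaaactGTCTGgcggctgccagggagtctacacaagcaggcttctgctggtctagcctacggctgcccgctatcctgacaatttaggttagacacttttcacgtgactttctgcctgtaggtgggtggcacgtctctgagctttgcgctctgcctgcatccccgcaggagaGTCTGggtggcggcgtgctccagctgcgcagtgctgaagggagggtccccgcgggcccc

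Lysyl oxidases start the cross-links of elastin and collagen. Lox had 122, 131, 133 and 134 RPKM in brown Fgf8b libraries, against 581, 604, 590.3 and 676 RPKM in brown control libraries. It had 145, 145, 143 and 138 RPKM in white Fgf8b libraries, against 685, 651, 699.5 and 666 RPKM in white control libraries. Groups were apart in both depots, and brown control 15 was the highest brown control. Lox fell by 2.24 ± 0.04 (log2, SE; adjusted p = 3.27e-19) in brown and by 2.25 ± 0.04 (adjusted p = 4.13e-19) in white preadipocytes. The response difference was 0.01, with a 95% interval from -0.10 to 0.13 (adjusted p = 0.893).

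Loxl1, which is needed for elastin maintenance in adult mice, did not fall. It had 128, 134, 133 and 122 RPKM in brown Fgf8b libraries, against 119.9, 123, 121 and 98.6 RPKM in brown control libraries. It had 142, 138, 134 and 137 RPKM in white Fgf8b libraries, against 113, 118, 112 and 115 RPKM in white control libraries. The white groups were apart, the brown groups overlapped, and brown control 15 was the lowest library. Loxl1 rose by 0.16 ± 0.06 (log2, SE; adjusted p = 0.0142) in brown and by 0.26 ± 0.06 (adjusted p = 0.000375) in white preadipocytes. The brown call is weak: the rise was 0.09 without brown control 15 (adjusted p = 0.0333), and was lost with upper-quartile scaling (0.09, adjusted p = 0.138) and with brown libraries fitted alone (0.16, adjusted p = 0.0537). The level of Lox over that of Loxl1 within a library was 1.01 ± 0.07 in brown Fgf8b against 5.37 ± 1.0 in brown control, and 1.04 ± 0.03 in white Fgf8b against 5.90 ± 0.32 in white control (SD, n = 4 each). Both oxidases were therefore at about the same level with Fgf8b in either depot.

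**Figure D2:**
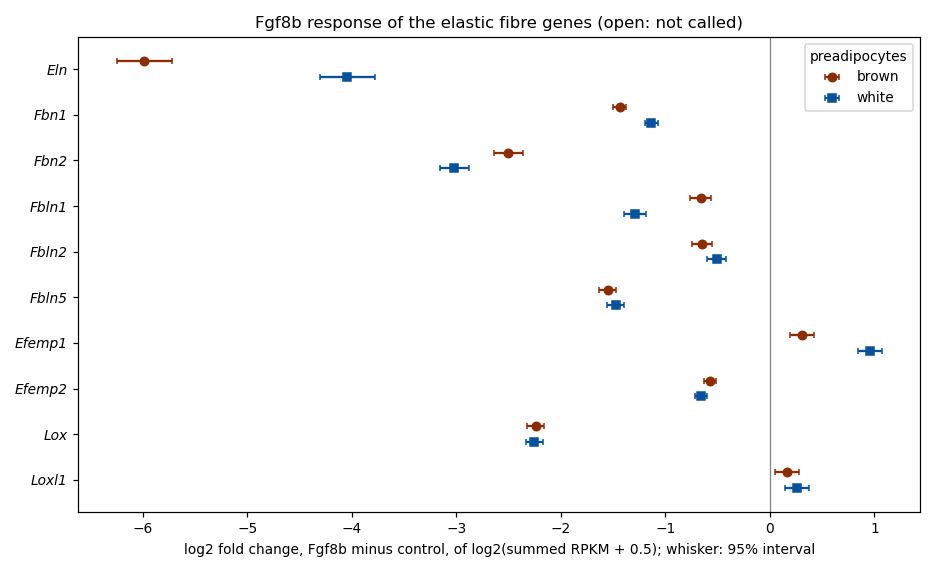
Fgf8b minus control difference of log2(summed RPKM + 0.5) for each of the 10 genes (horizontal axis, log2) with its 95% interval, brown preadipocytes as circles above white preadipocytes as squares. Intervals of Eln, Fbn1, Fbn2, Fbln1 and Efemp1 are apart between the depots, and those of Lox lie on each other at -2.24 and -2.25.

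**Figure D3:**
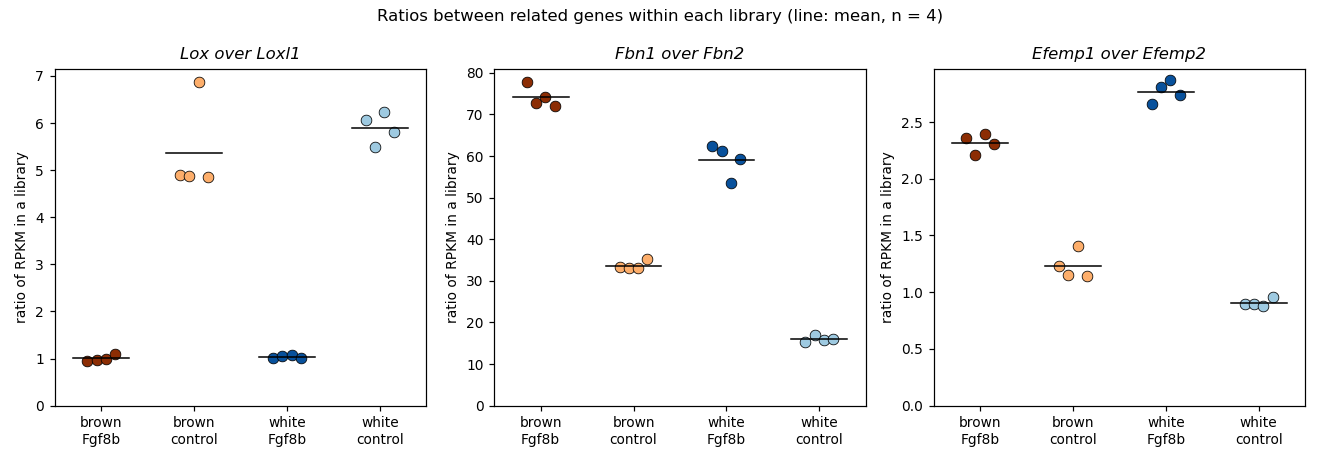
Ratio of the RPKM of Lox to Loxl1, Fbn1 to Fbn2 and Efemp1 to Efemp2 within each library (vertical axes, linear from 0), with the mean of 4 libraries per group as a line. Lox over Loxl1 is near 1 in all Fgf8b libraries and at least 4.85 in all controls; the high brown control point, 6.86, is brown control 15.

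The make-up of the group of transcripts shifted with these changes. The summed RPKM of the 10 was 1583 ± 30.1 in brown Fgf8b against 2704 ± 60.8 in brown control, and 1776 ± 35.0 in white Fgf8b against 2701 ± 31.8 in white control (SD, n = 4 each). Lox held 8.19% of the sum in brown Fgf8b against 22.7% in brown control, and 8.03% in white Fgf8b against 25% in white control. Efemp1 held 24.7% in brown Fgf8b against 11.6% in brown control, and 28.0% in white Fgf8b against 9.5% in white control. The order of mean levels in brown Fgf8b cells was Fbln2, Efemp1, Efemp2, then Lox, Fbn1 and Loxl1 with overlapping ranges, Fbln5 and Fbln1 with overlapping ranges, Fbn2 and Eln. In brown controls it was Fbln2, Lox, Fbn1, Efemp1, Efemp2, Loxl1, Fbln5, Fbln1, Eln and Fbn2, each apart from the next. In white Fgf8b cells it was Fbln2, Efemp1, Efemp2, Fbn1, then Lox and Loxl1 with overlapping ranges, Fbln1, Fbln5, Fbn2 and Eln. In white controls it was Fbln2, Lox, Fbn1, Efemp2, Efemp1, Loxl1, Fbln1, Fbln5, Fbn2 and Eln, each apart from the next. Eln, the protein core of the fibre, was thus the scarcest of these transcripts in 3 of the 4 groups.

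Between depots, 3 of the 10 genes were higher and 4 lower in brown than in white controls, where 18.1% and 15.9% of all genes were called. Eln, Fbln5 and Efemp1 were higher, and Fbn2, Fbln1, Efemp2 and Lox lower, with Efemp2 at -0.17 and Lox at -0.15 on the log2 scale. Fbn1 at 0.02 (95% interval -0.04 to 0.08) and Loxl1 at 0.01 (-0.11 to 0.12) were not called. Under Fgf8b, 1 was higher and 7 lower in brown, where 27.0% and 24.7% of all genes were called. The 7 were Eln, Fbn1, Fbn2, Fbln1, Efemp1, Efemp2 and Lox. Efemp2 was the smallest of these at -0.08 (adjusted p = 0.0240), a call that was lost in 7 of the alternatives. The response itself differed in 5 genes: it was more positive in brown for Fbn2 and Fbln1 (17.2% of all genes) and more negative in brown for Eln, Fbn1 and Efemp1 (17.9% of all genes). These comparisons share libraries with those of treatment, and so are not independent of them. Without brown control 15, 5 genes rather than 3 had a more negative response in brown, with Fbln2 and Loxl1 added.

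Entries of one gene did not agree in brown control 15. Its level over the mean of the other brown controls ran over the entries of a gene (10 of Lox, 5 of Efemp1, 9 of Fbn1, 15 of Fbln2) from 0.897 to 1.22 for Lox, 1.01 to 1.54 for Efemp1, 0.748 to 1.03 for Fbn1 and 0.680 to 1.16 for Fbln2. For Lox, the ratio of the mean Fgf8b level to the mean control level ran from 0.205 to 0.216 over the 10 Lox entries in brown and from 0.204 to 0.211 in white preadipocytes. For Efemp1 it ran from 1.18 to 1.25 in brown and from 1.89 to 1.98 in white preadipocytes over 5 entries. Over the 5 entries of Eln with at least 1 RPKM in brown controls, the ratio ran from 0.00861 to 0.0195 in brown preadipocytes. The top of that range was 1 entry with means of 1.05 RPKM in brown control and 0.0206 RPKM in brown Fgf8b. The other entries ran up to 0.00999. Over the 4 with at least 1 RPKM in white controls, the ratio ran from 0.0481 to 0.0516 in white preadipocytes. For entries of Fbn2 at the same limit, it ran from 0.145 to 0.210 in brown and from 0.082 to 0.126 in white preadipocytes.

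**Figure D4:**
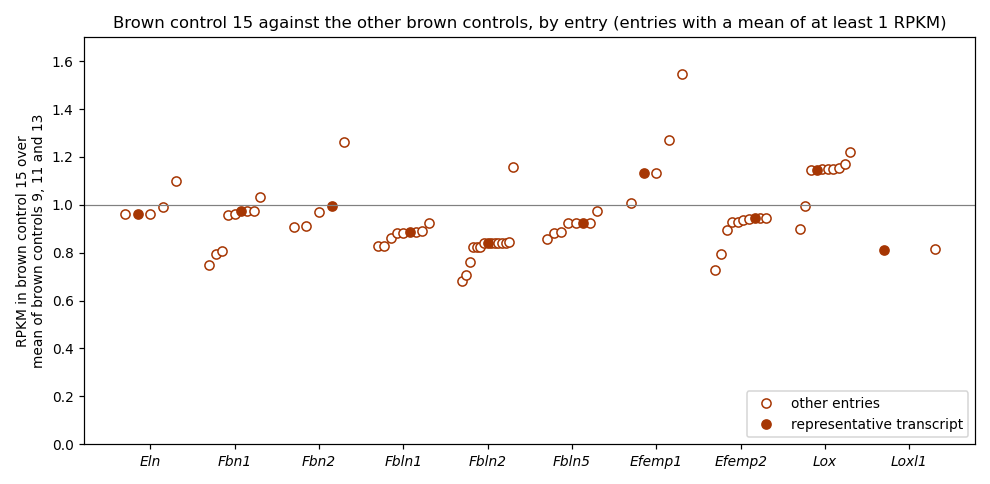
Level in brown control 15 over the mean of brown controls 9, 11 and 13 (vertical axis, ratio, linear from 0) for the entries of each gene with a mean of at least 1 RPKM in brown controls; filled points are the representative transcripts. Most Fbln1, Fbln2 and Loxl1 entries lie below 1, most Lox entries above it.

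Partners of the elastic fibre were taken as a list of 43 further genes, 38 of which were tested; Emilin3, Adamtsl2, Adamts17, Mmp7 and Elane reached at most 0.0895 RPKM in any library. With Fgf8b, 10 of the 38 rose and 23 fell in brown preadipocytes, where 36.8% of all genes were called higher and 34.7% lower. In white preadipocytes 14 rose and 21 fell, where 36.4% of all genes were called higher and 29.5% lower. The 14 that rose are near the share over all genes. The median log2 fold change was -0.44 in brown and -0.36 in white. In brown against white controls 11 were higher and 14 lower, beside 18.1% and 15.9% of all genes, and without brown control 13 the count higher was 7. Under Fgf8b 7 were higher and 19 lower in brown, beside 27.0% and 24.7% of all genes. The response was more positive in brown for 9 and more negative for 14, beside 17.2% and 17.9% of all genes. The same shares stand behind the counts by class that follow, which are of few genes and are read as a description.

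Among partners of the microfibril, 7 of 10 tested fell in each depot, while 2 rose in brown and 3 in white preadipocytes. Mfap4, whose protein binds fibrillin and tropoelastin, averaged 0.721 ± 0.119 RPKM in brown Fgf8b against 18.0 ± 2.4 RPKM in brown control, and 4.39 ± 0.30 RPKM in white Fgf8b against 35.4 ± 2.2 RPKM in white control (SD, n = 4 each). It fell by 4.28 ± 0.10 (log2, SE; adjusted p = 1.32e-17) in brown and by 2.98 ± 0.10 (adjusted p = 3.38e-15) in white preadipocytes, a response difference of -1.30 ± 0.14 (adjusted p = 8.97e-07). Ltbp1, which tethers latent TGF-beta to microfibrils, went the other way. It averaged 34.4 ± 1.4 RPKM in brown Fgf8b against 5.45 ± 0.37 RPKM in brown control, and 30.0 ± 0.7 RPKM in white Fgf8b against 11.6 ± 0.7 RPKM in white control (SD, n = 4 each). It rose by 2.60 ± 0.04 (log2, SE; adjusted p = 2.86e-19) in brown and by 1.33 ± 0.04 (adjusted p = 5.85e-15) in white preadipocytes. Mfap5, a glycoprotein of the microfibril, was lower in brown than in white preadipocytes under Fgf8b, at 17.2 ± 1.1 against 40.2 ± 1.6 RPKM (SD, n = 4 each).

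Of the 5 tested ADAMTS-like genes, 2 rose and 3 fell in each depot. Adamtsl4, which encodes a microfibril-binding protein, averaged 1.84 RPKM in brown Fgf8b against 11.1 RPKM in brown control, and 1.02 RPKM in white Fgf8b against 8.08 RPKM in white control. It fell by 2.52 in brown (adjusted p = 1.73e-12) and by 2.77 in white preadipocytes (adjusted p = 5.68e-13), both log2. Adamtsl5, another member of the class, fell by 1.0 in brown (adjusted p = 1.92e-09) and by 0.92 in white preadipocytes (adjusted p = 8.11e-09). Between depots Adamts6 was lower in brown among controls (-0.44, adjusted p = 0.000145), and Adamts10, whose protein binds fibrillin-1, was lower in brown under Fgf8b (-0.43, adjusted p = 0.00233). Of the 3 other fibulins and hemicentins, 2 fell in each depot. Fbln7, encoding the cell adhesion protein fibulin-7, averaged 0.320 RPKM in brown Fgf8b against 5.69 RPKM in brown control, and 0.316 RPKM in white Fgf8b against 8.94 RPKM in white control. It fell by 3.54 (adjusted p = 2.87e-12) and 4.33 (adjusted p = 1.85e-13) on the log2 scale in brown and white preadipocytes.

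Among the 5 further genes of cross-linking, 1 rose and 2 fell in brown, and 3 rose and 0 fell in white preadipocytes by limma at the adjusted threshold, beside the same shares over all genes (36.8% and 34.7% in brown, 36.4% and 29.5% in white). At an unadjusted p under 0.05, 0 fell in white as well. Loxl3, another lysyl oxidase, rose in both. It averaged 108 ± 2.6 RPKM in brown Fgf8b against 51.0 ± 4.2 RPKM in brown control, and 146 ± 5.4 RPKM in white Fgf8b against 48.0 ± 1.7 RPKM in white control (SD, n = 4 each). The log2 rise was 1.08 ± 0.05 (SE; adjusted p = 4.36e-13) in brown and 1.61 ± 0.05 (adjusted p = 1.64e-15) in white preadipocytes. Loxl4 fell by 0.44 in brown (adjusted p = 9.70e-06) and rose by 0.58 in white preadipocytes (adjusted p = 4.04e-07), both log2, with a response difference of -1.02 ± 0.10 (SE; adjusted p = 2.06e-07). Loxl2, the remaining lysyl oxidase, is outside the rule for named genes and was added after its values were seen. It fell by 0.40 in brown (adjusted p = 6.16e-08) and was not called in white preadipocytes (0.07, adjusted p = 0.168), both log2. Bmp1, the protease that activates pro-lysyl oxidase, was not called in brown (-0.06, adjusted p = 0.294) and rose by 0.43 in white preadipocytes (adjusted p = 2.20e-07). Atp7a, the copper pump that loads lysyl oxidases, was called between controls alone, 0.21 higher in brown than in white (log2, adjusted p = 0.0187).

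Of the 6 tested proteases that can cut elastin, 2 rose and 4 fell in each depot, and the share that rose is near that over all genes (36.8% in brown, 36.4% in white). Ctsl (cathepsin L) averaged 614 ± 14.8 RPKM in brown Fgf8b against 334 ± 13.2 RPKM in brown control, and 1204 ± 37.4 RPKM in white Fgf8b against 448 ± 6.9 RPKM in white control (SD, n = 4 each). It rose by 0.88 (adjusted p = 6.34e-15) in brown and by 1.43 (adjusted p = 7.85e-18) in white preadipocytes, both log2. The other gene that rose, Mmp12 (macrophage elastase), was picked out after its values were seen. It stayed under 1 RPKM in all groups, at 0.0637 and 0.785 RPKM in brown and white Fgf8b cells, and was listed at 0 in all brown controls. Ctsk (cathepsin K) fell by 0.93 in brown (adjusted p = 3.25e-13) and by 1.48 in white preadipocytes (adjusted p = 4.65e-16), both log2. Mmp2 (gelatinase A) averaged 68.1 RPKM in brown Fgf8b against 126 RPKM in brown control, and 137 RPKM in white Fgf8b against 271 RPKM in white control.

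Of 9 tested receptor genes, 3 rose and 5 fell in brown, and 4 rose and 5 fell in white preadipocytes, beside 36.8% and 34.7% of all genes in brown and 36.4% and 29.5% in white. Itga8, an integrin subunit, averaged 0.885 RPKM in brown Fgf8b against 3.85 RPKM in brown control, and 1.04 RPKM in white Fgf8b against 6.37 RPKM in white control. It fell by 2.14 (adjusted p = 4.03e-13) in brown and by 2.50 (adjusted p = 4.84e-14) in white preadipocytes, both log2. Neu1, the sialidase of the elastin receptor complex, fell by 0.57 (adjusted p = 1.08e-08) in brown and by 1.36 (adjusted p = 3.69e-14) in white preadipocytes, both log2, a response difference of 0.79 ± 0.07 (SE; adjusted p = 1.98e-07). Ctsa, the protective protein of the same complex, had a response difference of 0.44 (adjusted p = 1.60e-06). Itgb5, an integrin subunit that pairs with alpha-v, fell by 1.17 in brown (adjusted p = 3.18e-15) and by 0.77 in white preadipocytes (adjusted p = 2.25e-12), both log2. Itgb1, the shared beta-1 subunit, was 0.20 higher in brown than in white controls (log2, adjusted p = 9.82e-05).

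**Figure D5:**
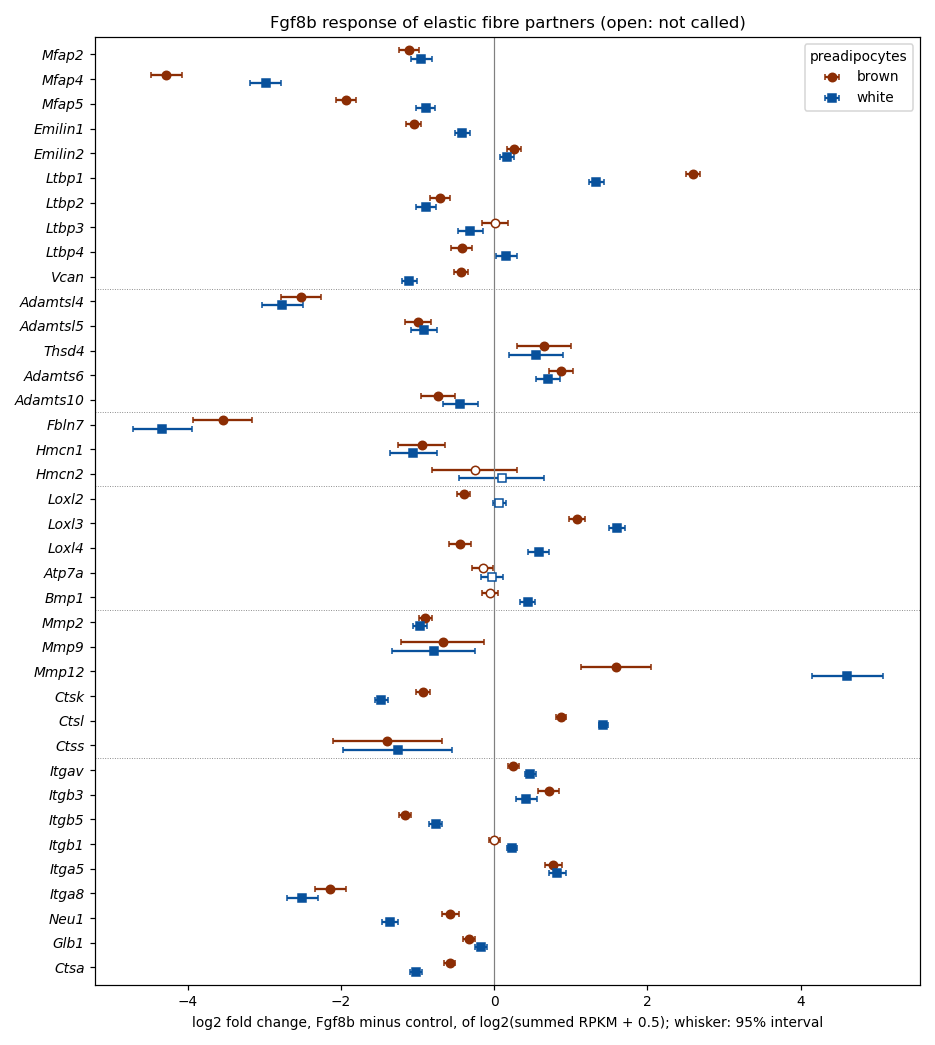
Fgf8b minus control difference of log2(summed RPKM + 0.5) for the 38 tested partner genes (horizontal axis, log2) with its 95% interval, brown preadipocytes as circles above white preadipocytes as squares; open symbols were not called and dotted lines part the classes. Mfap4 and Fbln7 lie farthest to the left, and Ltbp1, Loxl3 and Ctsl lie right of 0 in both depots.

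Markers of contractile and vascular cells, which also make elastic fibres, moved with treatment. The summed level of 7 smooth muscle and pericyte markers, led by Acta2, was 448 to 538 RPKM in brown Fgf8b against 1427 to 1700 RPKM in brown control, and 347 to 379 RPKM in white Fgf8b against 990 to 1127 RPKM in white control libraries, with none of the 7 at 0 in any group. Of these 7, 6 fell and 1 rose in brown, and 5 fell and 1 rose in white preadipocytes. Beside these counts, 34.7% of all genes fell and 36.8% rose in brown, and 29.5% fell and 36.4% rose in white. The marker that rose was Rgs5, at 2.62 RPKM in brown Fgf8b against 0.793 RPKM in brown control. In white it had 8.89 RPKM with Fgf8b against 0.383 RPKM with control. The sum of 6 endothelial markers was 1.47 to 1.89 RPKM in brown Fgf8b against 7.64 to 8.90 RPKM in brown control, and 2.40 to 2.92 RPKM in white Fgf8b against 11.1 to 12 RPKM in white control libraries. Most of that difference was Tek: the 5 others summed to 1.20 to 1.52 RPKM in brown Fgf8b against 1.44 to 2.27 RPKM in brown control, and 1.79 to 2.32 RPKM in white Fgf8b against 2.14 to 2.49 RPKM in white control libraries. Of 5 endothelial markers tested, 3 fell and 1 rose in each depot, beside the same shares over all genes. The sum of 4 Schwann cell markers was 2.55 to 3.49 RPKM in brown Fgf8b against 9.88 to 12.9 RPKM in brown control, and 1.69 to 2.48 RPKM in white Fgf8b against 5.74 to 7.01 RPKM in white control libraries. Most of that difference was S100b, at a mean of 1.29 RPKM in brown Fgf8b against 8.399 RPKM in brown control. In white it had 1.67 RPKM with Fgf8b against 5.69 RPKM with control. The 3 other Schwann markers summed to 1.23 to 1.88 RPKM in brown Fgf8b against 2.05 to 3.002 RPKM in brown control. In white they summed to 0.317 to 0.531 RPKM with Fgf8b against 0.561 to 0.704 RPKM with control. Leukocyte markers (5 of 6 listed in the table) summed to at most 4.29 RPKM in any library, with Cd3e at 0 in all groups. The 4 mesothelial markers summed to at most 0.421 RPKM, with the representative Lrrn4 transcript at 0 in all groups. All these sums take 1 transcript per gene. Summed over its entries, Lrrn4 passed the filter and was called lower with Fgf8b in brown preadipocytes (log2 -0.27, limma adjusted p = 0.00774). In bulk RNA, fewer cells of a type and less RNA per cell cannot be told apart, and the part of such cells in the falls of Eln, Lox and the fibrillins was not tested.

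The genes whose log2 levels followed 4 of the members most closely over the 16 libraries were sought in 8882 genes whose mean was 5 RPKM or more. They are a description, since the libraries fall into the same 4 groups for every gene. Eln was followed by Emb, Tspan6 and Ccdc80 (Pearson's r 0.993 to 0.994). Fbn1 was followed by Pbxip1, Fstl1 and Gpc6 (0.997 to 0.998), Fbln1 by Gdf10, Ctnnb1 and Cpxm1 (0.981 to 0.992) and Lox by Ogn, Igfbp4 and Sepp1 (0.999 each). Pearson's r does not measure the size of a change, and sizes differed from those of the members in both directions. The log2 fold changes with Fgf8b in brown and white were -0.13 and -0.17 for Ctnnb1 and -1.09 and -0.77 for Tspan6. For Ogn they were -4.84 and -4.94. Ogn, which encodes the small matrix proteoglycan osteoglycin, averaged 2.93 ± 0.09 RPKM in brown Fgf8b against 86.9 ± 11.1 RPKM in brown control, and 3.22 ± 0.38 RPKM in white Fgf8b against 101 ± 6.8 RPKM in white control (SD, n = 4 each). Gdf10, a ligand of the TGF-beta family, had the depot pattern of Fbln1, at 7.41 ± 0.64 RPKM in brown Fgf8b against 15 ± 1.0 RPKM in brown control, and 19.0 ± 1.1 RPKM in white Fgf8b against 96.5 ± 4.8 RPKM in white control (SD, n = 4 each).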

How the data were processed

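The authors deposited 1 table of RPKM per transcript entry (written with decimal commas), in 16 columns mapped to samples by title. Per the labels' protocols, libraries were made from total RNA (Illumina TruSeq RNA kit v2). CASAVA and bcl2fastq are named, with no versions, in the submitters' processing notes. The sources used here do not name the aligner, the counter, the genome build or the strandedness. Depth of 13.7 to 20.1 M reads was read back from the values, of which, among those worth at most 50 reads, 95.6 to 96.0% came out whole to within 0.1 read.

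Entries without a gene symbol (24393, or 14.5%) and 808 entries with a repeated accession, some of which lack a symbol too, were left out, and the other 143335 were summed to 28698 genes. The 15067 genes that reached 0.5 RPKM in 4 or more libraries were tested with limma 3.58.1 in R 4.3.3 on log2(RPKM + 0.5), in 1 fit of all 16 libraries, using a trended variance prior with robust moderation. The p-values are two-sided and adjusted over all genes by Benjamini-Hochberg. The procedure was tested on simulated data. Python 3.11.15 with pandas 2.3.3 did the rest.

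The design text speaks of 3 cultures per depot, while each group has 4 libraries. The labels do not tie libraries to cultures, so p-values measure the spread between libraries, which may in part be technical. The members and lists were chosen with earlier results of these data known. Named are all 10 members and, per class of the partner list and comparison, the 2 called genes with the largest change and a mean of at least 1 RPKM. The 3 genes most correlated with Eln, Fbn1, Fbln1 and Lox were also named. Alternatives were 2 pseudocounts, 2 filters, 2 scalings, 2 ways to take a gene's level, the groups compared alone, plain moderation and leaving out each library.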

Additional observations from a re-analysis of the deposited data

Results flagged for a closer look

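Single libraries stood apart from their group of 4 in 3 of 40 groups of values of the 10 genes, where chance would give about 1 in 20. Fbn1 was at 160.2 RPKM in white Fgf8b 4, while the other white Fgf8b libraries had 153.6 to 153.8 RPKM. Brown control 15 was low for Fbln2, at 820.3 RPKM beside 964.8 to 988.4 RPKM in the other brown controls. It was low for Loxl1 as well, at 98.59 RPKM beside 119.9 to 123.4 RPKM.

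The Fgf8b response differed between depots for 5 of the 10 genes by the limma test of the difference itself. As brown response minus white response on the log2 scale, it was -1.94 for Eln, -0.302 for Fbn1, -0.646 for Efemp1, 0.517 for Fbn2 and 0.625 for Fbln1. Eln and Fbn1 fell further in brown, Fbn2 and Fbln1 fell further in white, and Efemp1 rose less in brown than in white preadipocytes. By the same test, 17.2% of all genes were called more positive and 17.9% more negative in brown.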

How the results depend on the processing

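No paired analysis was made, because the labels do not say whether libraries of different groups were paired. Of the recomputed counts of called genes 770 stayed within 1.5 times and 4 moved. In brown preadipocytes the count of the 10 genes that rose with Fgf8b was 1 instead of 2 with upper-quartile scaling and with only the groups compared (Loxl1). Leaving out a library in turn, the partner genes higher in brown than in white controls numbered 7 (without brown control 13) to 12, and the elastic fibre genes with a more negative response in brown 3 to 5 (without brown control 15). Of the values of single genes, 1263 kept their direction and side of the threshold, 9 lost the call, 6 gained it and 12 changed sign. The sign changes were those of values near 0 that were not called: the Loxl1 difference between control depots (-0.0023 with median-of-ratios scaling, -0.025 to 0.082 leaving out a library) and the Lox response difference (-0.0094 with upper-quartile scaling, -0.010 to 0.053 leaving out a library). Efemp2 under Fgf8b was no longer called lower in brown with median-of-ratios scaling, with plain moderation, and without white Fgf8b 4 or 6 or brown Fgf8b 10, 14 or 16 (adjusted p = 0.0502 to 0.0614). Loxl1 was called lower in brown than in white under Fgf8b without brown control 15 (-0.09, adjusted p = 0.0192). It was also called with only the groups compared (-0.09, adjusted p = 0.0404). Brown control 15 is not part of that comparison, and the difference was -0.09 with all libraries too, so only the adjusted p changed. Without brown control 15, Loxl1 had a response difference of -0.18 (adjusted p = 0.00672). With upper-quartile scaling the Fbln2 response difference was called (-0.16, adjusted p = 0.0393). The cause was not tested. Scaling moved the log2 fold changes by -0.07 to 0.02. Depth limits Eln in brown Fgf8b libraries, where it rests on 5 to 14 reads.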
